A study of Drosophila melanogaster with 8 samples.

Results

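The 33 genes described here serve mitochondrial protein import, the copying and expression of mitochondrial DNA (mtDNA), and the shape and exchange functions of the organelle. They lie outside the mitochondrial ribosome and the respiratory chain. They were matched by gene symbol or synonym to a given list. The match itself used no signal, but this list and those set beside it were chosen with earlier results of these data known. Of the 33, 27 had a probe set that the array annotation gives to that gene alone, among 10845 such genes on the array. Another 3 (Tim10, mtTFB1 and PolG2) had a probe set shared with a neighbouring gene, and Tim9b, Tim17b and Tim23 matched no probe set. A filter on dim signal left 23 genes tested out of 6865 genes on the array as a whole, each with its brightest probe set.

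RNA came from cultured Drosophila melanogaster L57 cells, a single cell line, measured on 8 Affymetrix arrays in 4 groups of 2. The control group received DMSO, the solvent, and is listed as 0 h in the series text. The other groups received 1 µM juvenile hormone III (JH III), the insect hormone that holds back metamorphosis, for 3, 6 or 12 h. The controls were thus not collected alongside each exposure, and the source label of 1 DMSO array also mentions embryos. The labels do not say whether replicates were separate cultures, so p-values measure the spread between arrays, which may be technical.

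Nearly all mitochondrial proteins are made in the cytosol and enter through the TOM complex of the outer membrane. Most are then passed to the TIM23 complex, a matrix motor and folding chaperones of the inner compartments. Small TIM chaperones guide membrane proteins across the space between the membranes. A dedicated polymerase, a single-strand binding protein and packaging and transcription factors maintain mtDNA. Fusion and division proteins set the shape of the network, and porin and the ADP/ATP translocase exchange metabolites with the cytosol.

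Values are MAS5 signal intensity, which the authors scaled to a common trimmed mean of 500.1 on the 7 fully readable arrays. Changes are differences of log2(signal + 25) with a standard error from limma, and a call is a Benjamini-Hochberg adjusted p under 0.05 over 8380 probe sets. JH III 6 h replicate 2 was unreadable for 22.5% of the table, which left 9 of the 23 genes with 1 readable array at 6 h. Their 6 h error takes its spread from the other groups. Over probe sets readable on all arrays the trimmed means were 373.6 to 379.9, so the unreadable ones lay towards bright signal. Quantile normalization, used below as another setting, matched that array to the full ones without them. It moved the median change of all genes from 3 to 6 h from 0 to 0.16, so its 6 h values are limited. Median signal over probe sets readable on all arrays was 70.9 and 72.9 under DMSO and 79.5 to 86 under JH III, so centring arrays on their median moved the median change of all genes from 0.01 to -0.15 at 3 h. The log2 ratio of 3′ to 5′ signal of the actin control, a sign of RNA integrity, was -0.15 and -0.08 under DMSO and between -0.06 and 0.2 under JH III. That of the GAPDH control was 1.17 and 1.12 under DMSO and between 1.09 and 1.23 under JH III. For the eIF-4a control it was 0.57 and 0.8 under DMSO, 1.04 and 0.91 at 3 h, and between 0.66 and 0.95 at 6 and 12 h. Of 15 hemocyte markers on the array 11 passed the filter, against 1 of 6 neuronal, 1 of 5 muscle, 2 of 5 germline and 2 of 5 fat body markers. Among all genes 6865 of 10845 passed it. The hemocyte markers that did not were eater, lz, NimC1 and Sr-CI. By limma 7 of the 11 hemocyte markers rose at 3 h, 4 rose at 6 h and 0 rose at 12 h (median 0.43, 0.37 and -0.06). Among all genes 9.91%, 6.74% and 3.28% rose at these times. The part of the hemocyte markers in the results below was not tested.

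The comparison of 3 h with DMSO asked whether mitochondrial genes outside the ribosome and respiratory chain fell early. Of the 23, 2 fell, 1 rose and 20 did not pass. Phb1 and PolG1 fell and Marf rose. At an unadjusted p under 0.05 by limma 4 were lower and 1 higher, beside 1036 and 1171 of all 6865 genes. The share of all 6865 genes called was 8.8% lower and 9.91% higher, so 2 and 1 of 23 are near or below the background. The median change was -0.04, beside 0.01 for all genes. In RNA of a whole culture, fewer cells with a transcript and less transcript per cell cannot be told apart. Leaving out either DMSO array or either 3 h array left 1 gene lower and 0 higher, and without either 12 h array 1 was lower. With median centring 10 genes fell and 0 rose, against 17.6% lower and 5.46% higher among all genes.

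**Figure D1:**
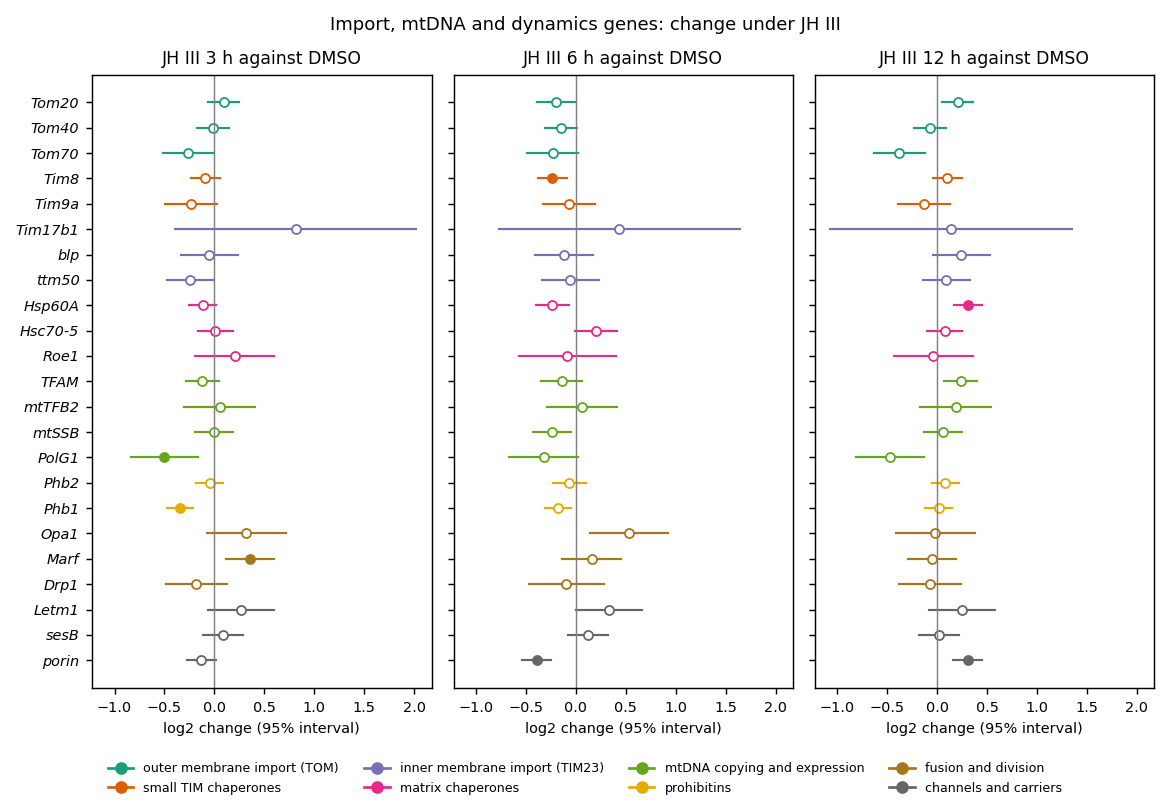
Change of each of the 23 genes tested at 3, 6 and 12 h of JH III against DMSO, on the log2 scale, with its 95% interval from the fit of all 8 arrays. Filled points passed an adjusted p of 0.05, colours mark the role, and most intervals span or lie near 0 while Tim17b1 has by far the widest.

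The outer membrane receptors and pore gave no call against DMSO. Tom40, the channel through which nearly all precursors pass, read 2160 and 2295 under DMSO, 2155 and 2260 at 3 h, 1999 and 2014 at 6 h, then 2063 and 2178 at 12 h. Its change at 3 h was -0.01 ± 0.07 (adjusted p = 0.931 by limma), with a 95% interval from -0.17 to 0.15. The 6 h arrays lay below both DMSO arrays and the others overlapped them.

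Tom20, a receptor for cleavable targeting signals, read 6561 and 6334 under DMSO, 6740 and 7041 at 3 h, 5623 on the 1 readable 6 h array, then 7761 and 7151 at 12 h. Its changes were 0.10 ± 0.07, -0.20 ± 0.08 and 0.21 ± 0.07 at 3, 6 and 12 h (adjusted p = 0.385, 0.166 and 0.117 by limma). The 12 h arrays lay above every other array and the 6 h array below all of them. Tom70, the receptor that favours carrier proteins, read 605 and 672 under DMSO, 534 and 525 at 3 h, 545 and 533 at 6 h, then 464 and 506 at 12 h. All 6 JH III arrays lay below both DMSO arrays, yet its changes of -0.26, -0.23 and -0.38 did not pass (adjusted p = 0.148, 0.21 and 0.0841 by limma). The duplicates tomboy20 and tomboy40, known from the male germ line, were dim and not tested, with signals from 8.23 to 58.3 and from 2.37 to 14.1 on the 8 arrays.

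Among the small TIM chaperones, 1 of 2 tested genes fell, at 6 h. Tim8 read 4158 and 4177 under DMSO, 3813 and 4029 at 3 h, 3565 and 3497 at 6 h, then 4343 and 4612 at 12 h. The groups did not overlap at any time, with 3 and 6 h below DMSO and 12 h above it. The fall at 6 h was -0.24 ± 0.06 (adjusted p = 0.0409 by limma). It was not called without either DMSO array, either 3 h array or either 6 h array (adjusted p from 0.0628 to 0.188). With quantile normalization, limited at 6 h by the partly unreadable array, the 6 h value was -0.02 (adjusted p = 0.937).

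Tim9a, which works with Tim10 in carrying membrane proteins, gave -0.23 ± 0.12, -0.07 ± 0.12 and -0.13 ± 0.12 at 3, 6 and 12 h. The probe set shared by Tim10 and CG42497 gave -0.14, -0.05 and -0.23 and did not pass (adjusted p = 0.181, 0.72 and 0.0802 by limma). Tim13, the partner of Tim8, was dim on all 8 arrays (5.97 to 57.6).

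The inner membrane import genes gave no call. Tim17b1, a channel subunit of TIM23, was weak and scattered, with 137 and 40.4 under DMSO, 174 and 140 at 3 h, 153 and 83.3 at 6 h, then 45 and 158 at 12 h. Its 95% interval at 3 h ran from -0.39 to 2.02, the widest of the 23. ttm50, the receptor subunit of TIM23, gave -0.24 ± 0.10 at 3 h (adjusted p = 0.141 by limma), -0.06 at 6 h from 1 readable array and 0.09 at 12 h. It read 1379 and 1259 under DMSO, 1144 and 1080 at 3 h, 1264 on the readable 6 h array, then 1308 and 1514 at 12 h, so only the 3 h arrays lay apart from DMSO. blp, a subunit of the import motor, gave -0.05, -0.12 and 0.24 (standard error 0.13 each). Tim17a1, another Tim17 duplicate, was dim (11 to 43.9).

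In the matrix the chaperonin subunit Hsp60A rose at 12 h. It read 18574 and 19032 under DMSO, 17056 and 17712 at 3 h, 15971 on the readable 6 h array, then 22970 and 23640 at 12 h. Both 12 h arrays lay above, and the 3 and 6 h arrays below, both DMSO arrays. The rise at 12 h was 1.24-fold (0.31 ± 0.06, adjusted p = 0.0251 by limma), and the values at 3 and 6 h, -0.11 and -0.24, did not pass. The 12 h call was lost without either DMSO array, either 3 h array or 12 h replicate 2 (adjusted p from 0.0554 to 0.167). With quantile normalization the 12 h value was 0.10 (adjusted p = 0.607) and with median centring 0.18 (adjusted p = 0.104).

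Its partners in the matrix gave no call. Hsc70-5, the mitochondrial Hsp70 that drives the motor and folds proteins, read 3187 and 3297 under DMSO, 3160 and 3393 at 3 h, 3727 on the readable 6 h array, then 3559 and 3280 at 12 h. Its 3 h change was 0.01 ± 0.07 with a 95% interval from -0.16 to 0.19, and the 3 and 12 h arrays overlapped DMSO. Roe1, the nucleotide exchange factor of that Hsp70, gave 0.21 ± 0.17, -0.09 ± 0.21 and -0.04 ± 0.17 at 3, 6 and 12 h, and was not called.

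Among the mtDNA genes PolG1, the catalytic subunit of the mtDNA polymerase, fell at 3 h. It read 482 and 566 under DMSO, 368 and 357 at 3 h, 466 and 364 at 6 h, then 362 and 377 at 12 h. All 6 JH III arrays lay below both DMSO arrays. The change was -0.50 ± 0.15 at 3 h (adjusted p = 0.0491 by limma), -0.32 ± 0.15 at 6 h (adjusted p = 0.195) and -0.47 ± 0.15 at 12 h (adjusted p = 0.105). The 3 h call sat at the threshold and was lost without any 1 of the DMSO, 3 h or 12 h arrays (adjusted p from 0.0549 to 0.27), and with quantile normalization (-0.59, adjusted p = 0.0901).

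The other mtDNA genes gave no call against DMSO. TFAM, which packages mtDNA and starts its transcription, read 3723 and 4070 under DMSO, 3492 and 3695 at 3 h, 3522 on the readable 6 h array, then 4577 and 4620 at 12 h. Its 12 h arrays lay above all others, with 0.24 ± 0.07 against DMSO (adjusted p = 0.0971 by limma). mtSSB, the single-strand binding protein, read 4522 and 4491 under DMSO, 4470 and 4548 at 3 h, 3478 and 4167 at 6 h, then 4790 and 4626 at 12 h. Only its 6 h arrays lay apart on the low side, at -0.24 ± 0.08 (adjusted p = 0.0929). mtTFB2, a transcription factor of mtDNA, read 288 and 300 under DMSO, 300 and 313 at 3 h, 293 and 323 at 6 h, then 303 and 376 at 12 h. Its changes were 0.06, 0.06 and 0.19 (standard error 0.16 each), and no call was made.

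For the 2 mtDNA genes without a probe set of their own, shared probe sets were lower at early times. The probe set shared by PolG2, the accessory subunit of the mtDNA polymerase, and GatC read 2409 and 2524 under DMSO, 1567 and 1485 at 3 h, 1550 and 1488 at 6 h, then 2240 and 2403 at 12 h. It fell by 0.68 ± 0.08 at 3 h (adjusted p = 0.000785 by limma) and by 0.69 ± 0.08 at 6 h (adjusted p = 0.00118), and gave -0.09 at 12 h. The probe set shared by mtTFB1 and Ccdc56 fell by 0.29 ± 0.07 at 3 h (adjusted p = 0.0208 by limma) and gave -0.22 and 0.10 later. The signal of either gene of these pairs cannot be told apart, so they are counted in no total here.

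The prohibitins form a ring scaffold in the inner membrane, and 1 of the 2 fell at 3 h. Phb1, listed under its older name l(2)37Cc, read 8684 and 8704 under DMSO, 6813 and 6929 at 3 h, 7579 and 7760 at 6 h, then 8536 and 9063 at 12 h. The 3 and 6 h arrays lay below both DMSO arrays and the 12 h arrays lay on either side of them. The fall at 3 h was -0.34 ± 0.06, or 0.791-fold (adjusted p = 0.00513 by limma), and it was called whichever 1 array was left out, at its weakest without DMSO replicate 2 (adjusted p = 0.05 after rounding). At 6 h it gave -0.18 ± 0.06 (adjusted p = 0.0758) and at 12 h 0.02 ± 0.06. Its partner Phb2 read 7977 and 7881 under DMSO, 7734 and 7684 at 3 h, 7568 on the readable 6 h array, then 8503 and 8269 at 12 h, with changes of -0.04, -0.07 and 0.08 that did not pass.

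Of the 3 fusion and division genes 1 rose at 3 h. Marf, the outer membrane mitofusin, read 582 and 575 under DMSO, 748 and 756 at 3 h, 648 on the readable 6 h array, then 539 and 574 at 12 h. Both 3 h arrays lay above all the others. The rise was 1.29-fold (0.36 ± 0.10, adjusted p = 0.0449 by limma), and it was not called without either DMSO or either 3 h array (adjusted p from 0.159 to 0.182). With quantile normalization it gave 0.31 (adjusted p = 0.295) and with median centring 0.20 (adjusted p = 0.242).

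Opa1, which fuses the inner membrane, read 617 and 701 under DMSO, 957 and 717 at 3 h, 1015 and 909 at 6 h, then 761 and 555 at 12 h. Its 3 and 6 h arrays lay above both DMSO arrays, at 0.32 ± 0.17 and 0.53 ± 0.17 (adjusted p = 0.238 and 0.0771 by limma), and the 12 h arrays overlapped DMSO. Drp1, the dynamin that divides mitochondria, gave -0.18 ± 0.13, -0.10 ± 0.16 and -0.07 ± 0.13.

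Of the channel and carrier genes porin alone was called, lower at 6 h and higher at 12 h. It encodes the voltage-dependent anion channel of the outer membrane. Its brighter probe set read 13929 and 15008 under DMSO, 12772 and 13758 at 3 h, 11171 and 10823 at 6 h, then 18090 and 17683 at 12 h. Both 6 h arrays lay below all the others and both 12 h arrays above them. The fall at 6 h was -0.39 ± 0.07, or 0.761-fold (adjusted p = 0.00573 by limma), and was lost without DMSO replicate 2 (adjusted p = 0.0661). The rise at 12 h was 1.24-fold (0.31 ± 0.07, adjusted p = 0.0293) and was lost without any 1 of the DMSO, 3 h or 12 h arrays (adjusted p from 0.052 to 0.208). With quantile normalization the 12 h value was 0.16 (adjusted p = 0.277) and with median centring 0.18 (adjusted p = 0.137).

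A second probe set of porin read 710 and 808 under DMSO, 614 and 692 at 3 h, 697 on the readable 6 h array, then 1026 and 1246 at 12 h. It rose at 12 h by 0.56 ± 0.13 (adjusted p = 0.0432 by limma) and gave -0.11 ± 0.16 at 6 h. The probe sets therefore gave a 12 h rise alike and differed in the size of the 6 h value. sesB, the ADP/ATP translocase, overlaps its relative Ant2 in the genome. It read 14467 and 14943 under DMSO, 15641 and 15637 at 3 h, 15097 and 16840 at 6 h, then 16243 and 13654 at 12 h. Its changes were 0.09, 0.12 and 0.02 (standard error 0.09 each), with the 3 and 6 h arrays above DMSO and the 12 h arrays on either side. With quantile normalization its 3 h value was 0.22 and was called (adjusted p = 0.0378 by limma), and with median centring it was -0.07. With quantile normalization it was also called lower at 12 h than at 3 h (-0.31, adjusted p = 0.0106) and at 6 h (-0.27, adjusted p = 0.0165). Letm1, an inner membrane protein of cation exchange, gave 0.27, 0.33 and 0.25 (standard error 0.15 each), with all 6 JH III arrays above both DMSO arrays and no call.

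**Figure D2:**
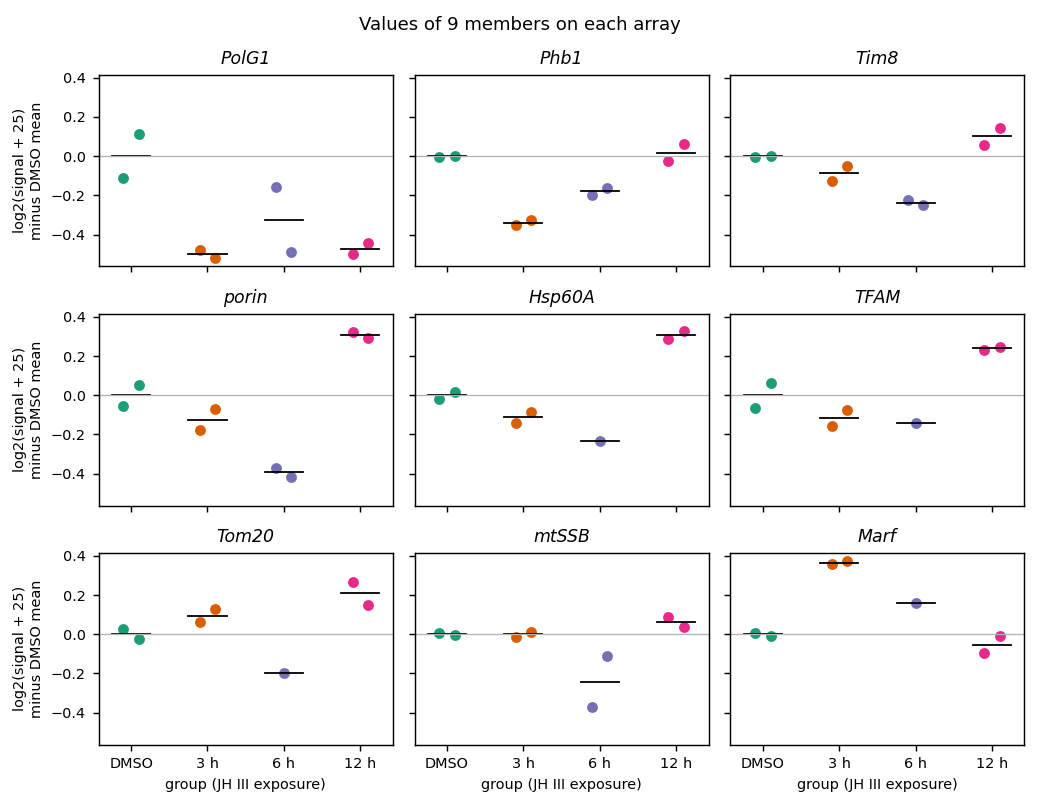
Values of 9 genes on each readable array, as log2(signal + 25) minus the mean of the DMSO arrays, with a bar for the group mean. porin, Hsp60A and TFAM are lower at 3 and 6 h and highest at 12 h, PolG1 is below DMSO on all 6 JH III arrays, and Marf is highest at 3 h.

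The same question was put to the 6 h arrays. Of the 23 genes 2 fell (Tim8 and porin) and 0 rose by limma. At an unadjusted p under 0.05 by limma 6 were lower and 1 higher, beside 914 and 1038 of all 6865 genes. Among all genes 6.7% were called lower and 6.74% higher. The median of the 23 was -0.10 (0.04 for all genes), and no gene that had fallen at 3 h was among those that fell at 6 h. Leaving out DMSO replicate 2 gave 0 lower, while 1 was lower without DMSO replicate 1, either 3 h array or 6 h replicate 1. With median centring 8 fell, against 14.3% of all genes.

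At 12 h 2 genes rose (Hsp60A and porin) and 0 fell by limma. At an unadjusted p under 0.05 by limma 2 were lower and 4 higher, beside 833 and 694 of all 6865 genes. Among all genes 2.77% were called lower and 3.28% higher, and the median of the 23 was 0.08 (-0.01 for all genes). The number higher was 0 without either DMSO array, either 3 h array or 12 h replicate 2, and 1 without 12 h replicate 1. With median centring 0 rose and 2 fell, against 2.16% and 8.99% of all genes. Hsp60A and porin are among 7 of the 23 in the brightest 5% of genes. Of the 344 genes of that class 15.1% rose at 12 h and 25% fell at 3 h, and the part of brightness in these calls was not tested.

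Arrays of a group could lie wholly to one side of DMSO with or without a call. At 3 h 11 of the 23 genes lay wholly below DMSO and 8 above, where 29% and 33% of all genes did. At 6 h, with 1 readable array for 9 of them, 12 lay below and 5 above, where 29.7% and 35.4% of all genes did. At 12 h 4 lay below and 10 above, where 27% and 24.6% of all genes did.

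The JH III times were also compared with each other. From 3 to 6 h 0 were called in either direction by limma (4 lower and 1 higher at an unadjusted p under 0.05), where 0.0437% and 0.0291% of all genes were. From 3 to 12 h 4 were higher (Hsp60A, TFAM, Phb1 and porin) and Marf was lower, where 7.43% of all genes were called higher and 8.65% lower. From 6 to 12 h 6 were higher (Tom20, Tim8, Hsp60A, TFAM, mtSSB and porin) and 0 lower (1 at an unadjusted p under 0.05), where 6.93% and 7.14% of all genes were. Wholly apart from the 3 h arrays lay 9 genes on the low and 4 on the high side at 6 h (26% and 27.8% of all genes), then 2 and 10 at 12 h (33.7% and 23.4%). From the 6 h arrays 5 lay apart on the low and 11 on the high side at 12 h (37% and 24.7%). These comparisons share arrays, so they are not separate evidence. The 23 genes gave 17.4% higher from 3 to 12 h and 26.1% from 6 to 12 h, and related lists gave more. Mitochondrial ribosomal proteins gave 46.9% and 43.8%, and complex I 36.7% both times. Complexes II to V gave 44.8% and 48.3%, and cytosolic ribosomal proteins 52.9% and 55.9%. Marf was not called from 3 to 12 h without any 1 of the DMSO, 3 h or 12 h arrays (adjusted p from 0.0506 to 0.128), and TFAM not without 3 h replicate 1 (adjusted p = 0.101). Without 6 h replicate 1 only 14 of the 23 genes could be compared from 6 to 12 h. Of these porin and Tim8 were still higher and mtSSB was not (adjusted p = 0.198), while Tom20, Hsp60A and TFAM had no other readable 6 h array.

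The difference of porin from 6 to 12 h was 0.70 ± 0.07, or 1.63-fold (adjusted p = 0.000254 by limma), and it was called under all 17 other settings. Hsp60A gave 0.54 ± 0.07 (adjusted p = 0.00252, 1 readable 6 h array) and Tom20 0.40 ± 0.08 (adjusted p = 0.0164, 1 readable 6 h array). Tim8 gave 0.34 ± 0.06 (adjusted p = 0.00892) and TFAM 0.38 ± 0.09 (adjusted p = 0.0257, 1 readable 6 h array; 0.0515 and 0.0579 without 12 h replicate 2 or 1). With quantile normalization Hsp60A, Tom20, Tim8 and TFAM gave 0.22, 0.29, 0.11 and 0.30 and were not called (adjusted p = 0.133, 0.0685, 0.531 and 0.125). Those quantile values carry the limit of the partly unreadable 6 h array given above. In each of these 5 genes both 12 h arrays lay above every 6 h array. For mtSSB the difference of 0.30 ± 0.08 (adjusted p = 0.0428 by limma) was lost without any 1 array other than 6 h replicate 2 (adjusted p from 0.0697 to 0.198).

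The mitochondrial ribosome and the respiratory chain gave other counts on the same arrays. At 3 h 38 of 64 mitochondrial ribosomal proteins, 18 of 30 complex I genes and 10 of 29 genes of complexes II to V fell, beside 2 of the 23 genes here. Their medians were -0.34, -0.27 and -0.14, beside -0.04. At 6 h 38, 13 and 13 of them fell, with medians of -0.41, -0.23 and -0.25, beside 2 and -0.10 here. With quantile normalization 7, 8 and 4 of them fell at 3 h and 1, 7 and 6 at 6 h, beside 1 and 1 here, while 2.45% and 1.16% of all genes were called lower. Fewer genes of each list were thus called lower under that scaling. At 6 h the ribosome gave 1 of 64 beside 1 of 23 here, while complex I kept 7 of 30 and complexes II to V 6 of 29. These 6 h counts carry the limit of the partly unreadable array given above, and its part in them was not tested. Of all genes 4.5% were called higher at 6 h under that scaling. The 3 h medians there were -0.28, -0.23 and -0.13 beside 0.00 here, and with median centring -0.50, -0.43 and -0.30 beside -0.20. The difference between the lists was not tested.

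The intervals of single genes were set beside the ribosomal median, taken as fixed although it comes from the same arrays. Their half-widths had a median of 0.23 at 3 h and 0.26 at 6 h. Whether an interval holds the median depends on that width too, so the counts do not decide whether the lists fell to a like extent. At 3 h 16 of the 23 had a 95% interval wholly above the ribosomal median of -0.34 and 7 had one that held it, while 45.9% of all genes had theirs above. At 6 h the numbers were 16 and 7, with 52.8% of all genes above -0.41. The 95% interval held 0 for 19 of the 23 genes at 3 h, where it did for 68.3% of all genes, and for 17 at 6 h, where it did for 72%.

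**Figure D3:**
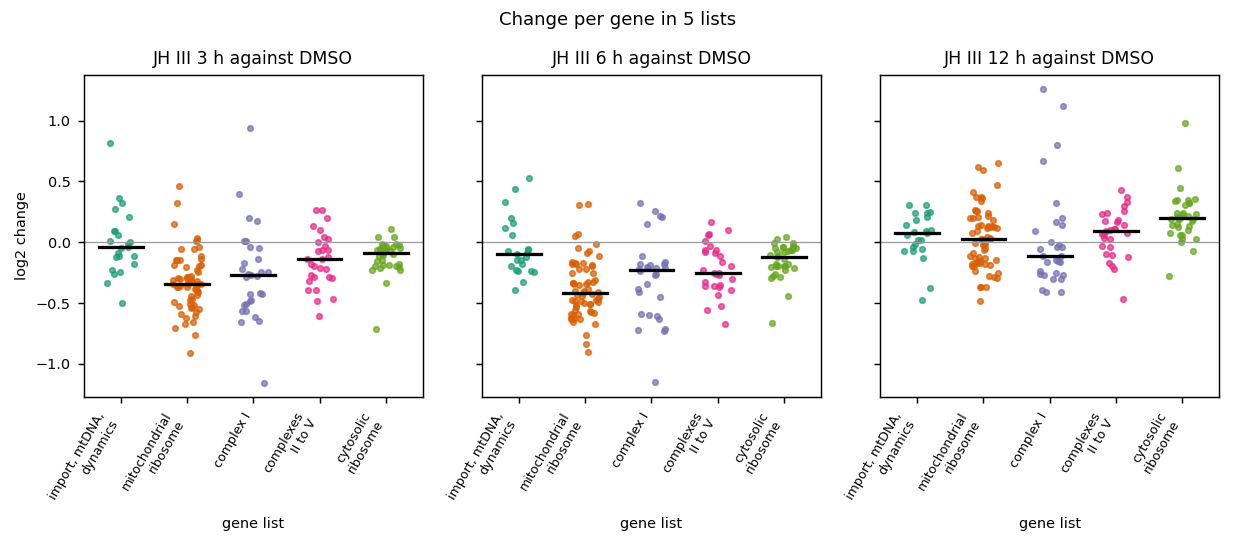
Change of each gene tested at 3, 6 and 12 h against DMSO in 5 lists, with a bar at the median of each list, on the log2 scale. At 3 h the medians are -0.04 for import, mtDNA and dynamics genes, -0.34 for mitochondrial ribosomal proteins and -0.27 for complex I.

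Of 16 further import and processing genes named, 12 had a probe set of their own and 7 of those passed the filter. Among these 7 genes 4 fell at 3 h and 0 rose, with a median of -0.37. They were QIL1 and Chchd3, subunits of the cristae-organizing MICOS complex, at -0.45 ± 0.09 and -0.38 ± 0.09, CG8728, the processing peptidase subunit that trims imported proteins, at -0.37 ± 0.07, and CG11267, the Hsp10 partner of Hsp60, at -0.28 ± 0.06 (adjusted p = 0.00853, 0.0178, 0.00658 and 0.0136 by limma). CG11267, CG8728 and QIL1 were also lower at 6 h, and by limma 0 of the 7 were called at 12 h (1 lower at an unadjusted p under 0.05).

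Of 15 further dynamics and quality control genes 3 fell at 3 h and 0 rose, with a median of -0.09. Pgam5, a mitochondrial phosphatase, fell by 0.68 ± 0.07 (adjusted p = 0.000785 by limma), Mul1, an outer membrane ubiquitin ligase, by 0.51 ± 0.10 (adjusted p = 0.0072) and Pink1, the kinase that marks damaged mitochondria, by 0.40 ± 0.12 (adjusted p = 0.0443). Pgam5 and Mul1 were also lower than DMSO at 6 h, by 0.62 ± 0.07 and 0.63 ± 0.10. Among 13 further mtDNA genes mTerf5, of the transcription termination factor family, fell at 3 h by 0.51 ± 0.08 and at 12 h by 0.52 ± 0.08, and mTTF fell at 6 h by 0.48 ± 0.12. Of 19 further carriers and channels colt, the carnitine carrier, fell at 3 h by 0.41 ± 0.08, and Dic1, a dicarboxylate carrier, rose at 6 h by 0.31 ± 0.07. PMP34, a peroxisomal member of the carrier family, rose at 12 h by 1.11 ± 0.13 (adjusted p = 0.00247 by limma).

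Of 8 tested regulators of mitochondrial genes 1 fell and 1 rose at 3 h, or 12.5% each way. The shares lower at 3 h were 57.1% for the further import and processing genes, 20% for dynamics and quality control, 7.69% for mtDNA and 5.26% for carriers and channels. Beside the 8.8% lower and 9.91% higher among all genes, the counts for regulators, mtDNA genes and carriers were near or below the background. Sirt1, a deacetylase, fell by 0.98 ± 0.20 (adjusted p = 0.0125 by limma), and Hcf, a transcriptional cofactor, rose by 0.76 ± 0.17 (adjusted p = 0.0181). Hcf was also higher than DMSO at 6 h, by 0.76 ± 0.21 from 1 readable array. At 12 h 0 of the 8 were called by limma, with 1 lower and 1 higher at an unadjusted p under 0.05.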

How the data were processed

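The authors deposited linear signal intensity for 14010 probe sets on each of 8 arrays, computed with MAS5 per the submitters' processing notes (its version is not given in the sources used here). Unreadable values of JH III 6 h replicate 2 (3151 probe sets, zeros but for 5) were set to missing. From these intensities log2(signal + 25) was computed, 44 controls and 5586 probe sets under the 40th percentile of mean log2 signal (61.5) were left out, and a model of 4 group means was fitted to the 8380 others with a variance trend, using limma 3.58.1 under R 4.3.3, with two-sided tests and after a trial on simulated data. Genes came from the array's annotation, updated through a RefSeq gene table. A gene was named from 1 symbol and its brightest probe set. Every member of the list could be named, and from each other list at most 4 called genes. The brightest genes were described after seeing the data. Members and lists were chosen with earlier results of these data known. Other settings were quantile normalization, median centring, added constants of 1 and 100, no filter, a filter at the 60th percentile, no variance trend, the compared groups alone, a replicate block, readable probe sets alone, all probe sets of a gene and leaving out each array. Array number limits the precision.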

Additional observations from a re-analysis of the deposited data

Results flagged for a closer look

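For 8 genes the response at 12 h differed from that at an earlier time by the test of the difference itself, in limma over all probe sets. Against 3 h the differences were 0.42 for Hsp60A, 0.35 for TFAM, 0.36 for Phb1, 0.43 for porin and -0.42 for Marf. Against 6 h they were 0.40 for Tom20, 0.34 for Tim8, 0.54 for Hsp60A, 0.38 for TFAM, 0.30 for mtSSB and 0.70 for porin. With quantile normalization the difference of porin against 6 h was the only 1 of the higher ones still called. Of the 344 brightest genes, which include Hsp60A, mtSSB, Phb1, porin and Tom20, 29.4% were called higher at 12 h than at 3 h, with a median of 0.06 that became -0.06 with quantile normalization. The part of brightness was not tested. Larger shares of the ribosomal and respiratory lists were also called higher at 12 h than at 3 or 6 h, as given above.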

How the results depend on the processing

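The counts depended most on the scaling. With median centring 10, 8 and 2 genes fell at 3, 6 and 12 h and 0 rose at any of these times, with medians of -0.20, -0.23 and -0.05, and from 3 to 12 h 0 were lower. With quantile normalization 1 fell and 1 rose at 3 h (sesB in place of Marf), 1 fell at 6 h and 0 rose at 12 h. From 3 to 12 h 0 were higher and 1 was lower under it (sesB in place of Marf). From 6 to 12 h 1 was higher (porin) and 1 lower (sesB). Its counts that involve 6 h carry the limit of the partly unreadable array. Without the dim filter 1 fell and 0 rose at 3 h, 1 fell at 6 h and 0 rose at 12 h, and the stricter filter gave 1 lower from 6 to 12 h. Without the variance trend 0 were called in either direction at 3 h, 0 fell at 6 h, 0 rose at 12 h, 1 was higher and 0 lower from 3 to 12 h, and 1 was higher from 6 to 12 h. With the compared groups alone 1 rose at 6 h, 0 rose at 12 h, 0 were lower from 3 to 12 h and 2 higher from 6 to 12 h. On the 14 genes readable on all arrays 1 fell and 0 rose at 3 h, 1 rose at 12 h, 2 were higher and 0 lower from 3 to 12 h, and 3 were higher from 6 to 12 h. The cause of these shifts was not tested, beyond the smaller number of genes in the last.

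Deviations of same-numbered arrays correlated between -0.047 and 0.066, so no common deviation was seen. That cannot show whether these arrays were handled together. With the replicate numbers as a block 1 fell and 0 rose at 3 h, 1 fell at 6 h, 1 rose at 12 h and 0 were lower from 3 to 12 h. Leaving out 1 array gave 1 to 2 lower and 0 to 1 higher at 3 h (median -0.05 to 0.01), 0 to 3 lower and 0 to 1 higher at 6 h (median -0.13 to -0.10), and 0 lower and 0 to 2 higher at 12 h (median 0.06 to 0.08). From 3 to 6 h the median ran from -0.03 to 0.01. From 3 to 12 h 0 to 1 were lower and 3 to 5 higher (median 0.05 to 0.10), and from 6 to 12 h 0 to 1 lower and 2 to 6 higher, the lowest of these over 14 genes (median 0.03 to 0.24). Over 2313 pairs of a gene's change and another setting, 99 lost a call, 33 gained one and 0 reversed a called direction. Only a pair with a call to begin with could lose it, and most had none, so the 99 is not a share of 2313. In 86 pairs the sign changed with no call. At 6 h 9 genes had a single readable array.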
